A study of Mus musculus with 6 samples.

Results

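The 10 genes described here encode secreted chemokines and inflammatory cytokines: *CXCL1*, *CXCL2*, *CXCL3*, *CXCL5*, *CXCL8*, *CCL20*, *IL1A*, *IL1B*, *IL6* and *LIF*. They were selected by their Ensembl identifiers from the 30543 genes of the deposited count table, and *CXCL5* was included as a survival gene of the study. The set was chosen with earlier results of these data known. RNA-seq was performed on CFPAC-1 cells, a human pancreatic adenocarcinoma (PAAD) line of ductal origin. There were 3 libraries from cells transfected with siRNA to *KRT7* (si-KRT7) and 3 from cells transfected with a negative control siRNA (si-Control). Both groups were thus given a short double-stranded RNA. *KRT7* encodes keratin 7, an intermediate filament protein of ductal epithelium. The comparison asked which of these secreted signals differed after *KRT7* knockdown. All data come from this line alone, and neither the time from transfection to harvest nor the *KRT7* duplex used is named for these libraries. The labels do not say whether replicates were separate cultures. The study's caption for its knockdown panels speaks of independent experiments in general, without saying so of these libraries. If they were not, the p-values measure only the spread between these libraries, which may be technical.

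Chemokines are small secreted proteins that attract leukocytes along a concentration gradient. CXCL1, CXCL2, CXCL3, CXCL5 and CXCL8 all bind the receptor CXCR2 and recruit mainly neutrophils, whereas CCL20 binds CCR6 and attracts dendritic cells and T cell subsets. IL-1α and IL-1β act on the same interleukin-1 receptor, whose signal reaches NF-κB and raises transcription of many chemokine genes. IL-6 and LIF signal through receptors that contain gp130 and activate STAT3. In PAAD such factors are known products of both tumor and stromal cells and take part in shaping the tumor immune microenvironment.

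Each si-Control library held 31932572 to 36315802 counts and each si-KRT7 library 28208896 to 36218243. Levels are given as CPM, read counts brought to a common library size with edgeR's TMM scaling, and 1 read was worth between 0.0269 and 0.0364 CPM. Replicate 2 of si-KRT7 stood apart: its correlation with each of the other si-KRT7 libraries was 0.982 across the genes tested, against 0.992 between those 2 and 0.991 to 0.992 among the si-Control libraries. It was nearer to the si-Control libraries, with a correlation of 0.986 with each, than to its own group. Values are therefore also given without it. That choice was made from these same data, and leaving it out lowered the spread between libraries. Without it 42.9% of 16202 genes had an adjusted p under 0.05 in edgeR, against 2.07% of 15736 with 6 libraries. Adjusted p-values without it are therefore given as a description only. Although the labels give the organism as mouse, all 30543 identifiers are human. No human table of gene names was used here, so *KRT7* itself and markers of the line or of other cell types were not analysed here, and the targeted gene was not used to check the label of any library.

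Of the 10 genes, *IL1B* was the 1 gene that passed the test: it fell by 43.8% in si-KRT7 cells, to a similar level in all 3 libraries. *IL1A*, *LIF* and *CCL20* also had lower values in every si-KRT7 library than in any si-Control library, but did not pass the adjusted limit. The CXCR2 ligands did not share one direction, and *CXCL5* was barely detected in either group. Filtering on low counts left 8 of the 10 genes among the 15736 tested, without *CXCL5* and *IL6*. By edgeR's quasi-likelihood test with an adjusted p under 0.05, 1 of the 8 was called, and it was lower, where 2.07% of all genes tested were called in either direction and 1.35% were called as lower. None passed the limit together with an absolute log2 fold change over 1, which 0.292% of all genes did. At an unadjusted p under 0.05 in edgeR, 4 of the 8 passed, all lower, where 9.08% of all genes were lower at this limit. Because the genes were chosen with earlier results of these data known, such shares describe the set and do not test it. The combined limits on adjusted p and fold change were passed by 0 of the 8 in the DESeq2 Wald test and in limma-voom. For these 2 tests the share of all genes past both limits was not counted. In each of them 3 of the 8 had an unadjusted p under 0.05, where 18.8% of all genes had one in either test.

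**Figure D1:**
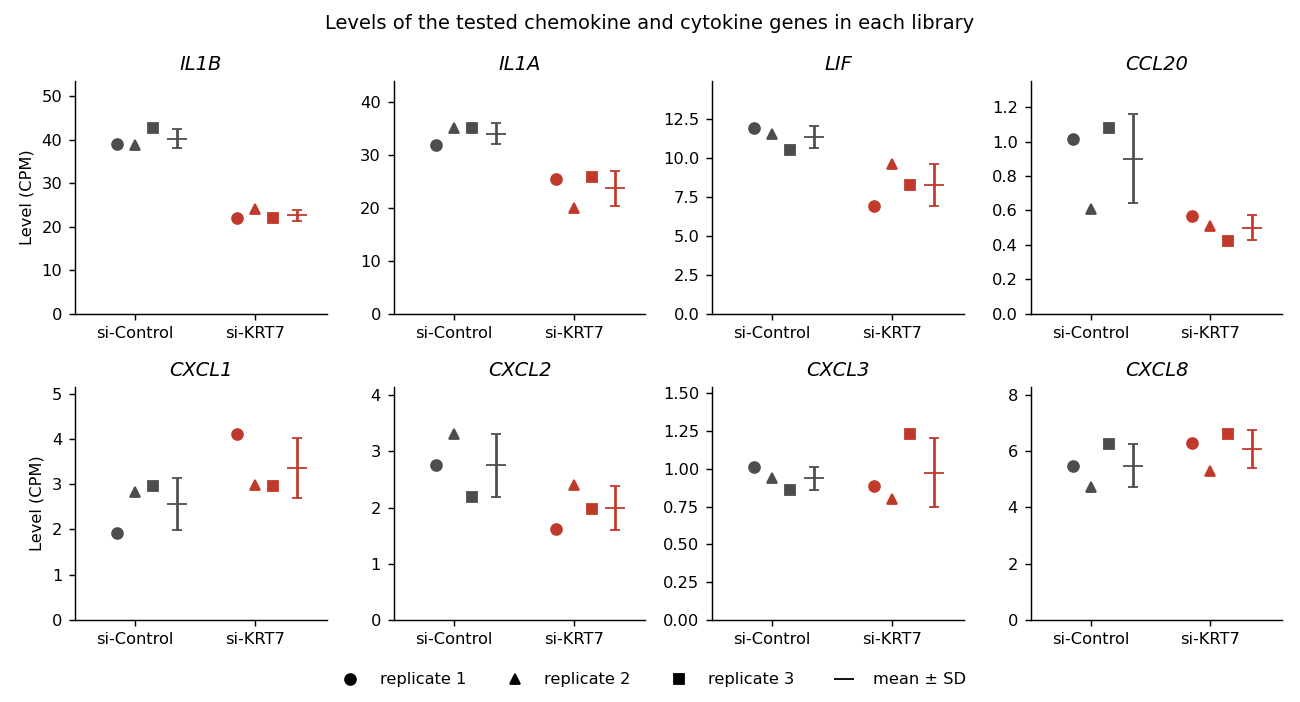
Level of the 8 tested genes in CPM (vertical axes, each starting at 0) in the si-Control (grey) and si-KRT7 (red) libraries. Symbols mark the replicate number, and the horizontal mark with bars is the mean ± SD of 3 libraries. For *IL1B*, *IL1A*, *LIF* and *CCL20* every si-KRT7 library lies below every si-Control library, whereas the groups overlap for the 4 chemokines of the lower row.

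*IL1B* (ENSG00000125538) encodes interleukin-1β, which is made as an inactive precursor and released after cleavage by caspase-1. Its level was 39.0, 38.8 and 42.8 CPM in si-Control replicates 1, 2 and 3. In si-KRT7 replicates 1, 2 and 3 it was 21.9, 24.0 and 21.9 CPM. The groups were well apart, and replicate 2 of si-KRT7, which stood apart over the whole transcriptome, was close to the others here: the 3 libraries held 54.4%, 59.7% and 54.5% of the si-Control mean. The mean was 40.2 ± 2.23 CPM (SD, n = 3) with si-Control and 22.6 ± 1.23 CPM (SD, n = 3) with si-KRT7, for a log2 fold change of -0.83 (standard error 0.091, 95% interval -1.04 to -0.62, adjusted p = 0.00672 in edgeR). As a fold, the interval runs from 0.486 to 0.650. By p-value *IL1B* ranked 30 among the 15736 genes tested. An exact permutation test (two-sided) of its levels gave p = 0.1, below which 3 libraries against 3 cannot go. RNA was taken from bulk cultures, so fewer cells with *IL1B* transcripts and fewer transcripts per cell cannot be told apart. The adjusted p was 6.46e-10 without si-KRT7 replicate 2 in edgeR. It was 0.0791, 0.0749 and 0.0783 in edgeR without si-Control replicates 1, 2 and 3 and 0.0510 without si-KRT7 replicate 3, with log2 fold changes of -0.85, -0.86, -0.79 and -0.81.

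*IL1A* (ENSG00000115008) encodes interleukin-1α, which shares its receptor with IL-1β but is active as a precursor and can be held inside the cell. It was read at 31.9, 35.2 and 35.2 CPM in si-Control replicates 1, 2 and 3, and at 25.5, 20.0 and 25.8 CPM in those of si-KRT7. No si-KRT7 library reached a si-Control library, and replicate 2 was the lowest of all, with 58.6% of the si-Control mean against 74.8% and 75.8% in replicates 1 and 3. This amounted to a log2 fold change of -0.52 (standard error 0.12, 95% interval -0.79 to -0.25), with an adjusted p of 0.0684 in edgeR, just above the limit. Without si-KRT7 replicate 2 the log2 fold change was smaller, -0.41, whereas the adjusted p was 4.00e-05 in edgeR. That fit had a common biological coefficient of variation of 0.0485 over all genes, and the fit of 6 libraries one of 0.130. The DESeq2 Wald test, run on the same 15736 genes, called *IL1A* with an adjusted p of 0.00505 and the same log2 fold change of -0.52.

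The ratio of *IL1B* to *IL1A* reads within a library needs no scaling between libraries. It was 1.22, 1.10 and 1.22 in si-Control replicates 1, 2 and 3, and 0.857, 1.20 and 0.847 in those of si-KRT7. In si-KRT7 replicates 1 and 3 the *IL1B* reads thus fell below the *IL1A* reads, with exact 95% binomial intervals of 0.780 to 0.943 and 0.763 to 0.939. In replicate 2 the ratio stayed in the si-Control range (interval 1.07 to 1.35), since *IL1A* was lower there as well. The intervals cover counting error only, the ratio was chosen after the values were seen, and no test was made on it. Together the interleukin-1 genes held between 74.5% and 76.5% of the reads of the 10 genes in si-Control and between 66.9% and 69.7% in si-KRT7 libraries.

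*LIF* (ENSG00000128342) encodes a cytokine of the IL-6 family that pancreatic tumor cells can secrete. In this set it was the only gp130 cytokine with more than a few reads, and others were not looked up. Its level was 12.0, 11.6 and 10.6 CPM in si-Control replicates 1, 2 and 3 and 6.95, 9.64 and 8.28 CPM in those of si-KRT7. The groups did not overlap, but the gap was narrow, because si-KRT7 replicate 2 held 84.9% of the si-Control mean and si-Control replicate 3 held 92.9%. Replicates 1 and 3 of si-KRT7 held 61.2% and 72.9%. Its log2 fold change was -0.46 (standard error 0.14, 95% interval -0.78 to -0.13, adjusted p = 0.140 in edgeR). Without si-KRT7 replicate 2 it was -0.59, with an adjusted p of 3.18e-04 in edgeR.

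*IL6* (ENSG00000136244), which encodes an inducer of the acute phase response, was barely detected. It had 0, 0 and 2 reads in si-Control replicates 1, 2 and 3 and 4, 0 and 0 reads in those of si-KRT7. All its reads thus came from a single library of each group, and 4 of the 6 libraries held none. Taking 3 reads as the one-sided limit that a count of 0 allows, the limit was between 0.0829 and 0.109 CPM in these 4 libraries. The two-sided Poisson interval of a count of 0 reaches 3.69 reads. The pooled counts of 4 against 2 gave a ratio of 2.14 with an exact 95% counting interval of 0.307 to 23.7, so changes within that interval, in either direction, were not excluded. The log2 ratio of 1.10 became 0.50 and 0.47 without si-Control replicates 1 and 2 and 1.59 and 1.66 without si-KRT7 replicates 2 and 3. Without si-Control replicate 3 or si-KRT7 replicate 1 a group had no read left, and no ratio was formed.

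*CXCL5* (ENSG00000163735), which encodes a neutrophil attractant of epithelial cells and is the survival gene of the study in this set, was likewise close to the detection limit in CFPAC-1 cells. It had 2, 0 and 0 reads in si-Control replicates 1, 2 and 3 and 0, 4 and 6 reads in those of si-KRT7. The groups overlapped, since si-KRT7 replicate 1 held no read while si-Control replicate 1 held 2. The highest level was 0.195 CPM, in si-KRT7 replicate 3, with an exact 95% Poisson interval of 0.0715 to 0.424 CPM. The pooled counts were 10 in si-KRT7 and 2 in si-Control libraries, a ratio of 5.35 with a counting interval of 1.14 to 50.2. That interval covers counting error only and compares these libraries, not the conditions. On the log2 scale the ratio was 2.42, and with a library left out it ran from 1.66 without si-KRT7 replicate 3 to 3.13 without si-KRT7 replicate 1. It was 1.79 and 1.89 without si-Control replicates 2 and 3, and no si-Control read remained without si-Control replicate 1. An exact permutation test (two-sided) of the 6 levels gave p = 0.4. When all genes with at least 1 read were tested in edgeR, *CXCL5* had a log2 fold change of 2.30 and an adjusted p of 0.645, and *IL6* one of 0.80 and an adjusted p of 0.884.

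**Figure D2:**
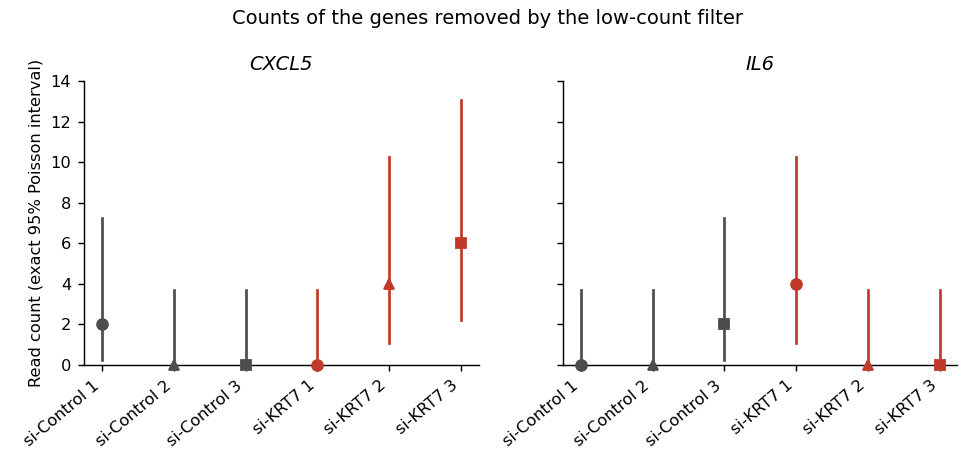
Read counts of *CXCL5* and *IL6* (vertical axis, from 0) in each of the 6 libraries, with exact 95% Poisson intervals that cover counting error only. *CXCL5* has reads in 1 si-Control and 2 si-KRT7 libraries and *IL6* in 1 library of each group, and the intervals overlap across groups for both.

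Over the 6 libraries the genes whose levels followed *CXCL5* most closely were ENSG00000231721 and ENSG00000143333, with Pearson correlations of 0.984 and 0.980 among the 12456 genes compared. The files do not pair these identifiers with names. The correlations are given as a description over 6 libraries. They rest on counts of 0 to 6 reads of *CXCL5*, and 25 of the genes compared had a correlation over 0.9.

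The other CXCR2 ligands were read at low to moderate levels, and their values went different ways. *CXCL1* (ENSG00000163739), a neutrophil attractant induced by NF-κB, was at 1.91, 2.82 and 2.96 CPM in si-Control replicates 1, 2 and 3 and at 4.12, 2.98 and 2.95 CPM in those of si-KRT7. Only si-KRT7 replicate 1, at 161% of the si-Control mean, stood clear of the si-Control libraries, while replicates 2 and 3 lay level with si-Control replicate 3. The fitted log2 fold change was 0.39 (95% interval -0.13 to 0.92, adjusted p = 0.404 in edgeR). It was 0.21 without si-KRT7 replicate 1 and 0.22 without si-Control replicate 1, and leaving out si-KRT7 replicate 2 gave 0.47 with an adjusted p of 0.0946 in edgeR.

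*CXCL2* (ENSG00000081041), a close relative of *CXCL1*, had the opposite sign. Its level was 2.75, 3.32 and 2.19 CPM in si-Control replicates 1, 2 and 3 and 1.62, 2.40 and 1.98 CPM in those of si-KRT7. Replicate 2 of si-KRT7 lay above si-Control replicate 3, so the groups overlapped in that library. In the fit, *CXCL2* had a log2 fold change of -0.47 (95% interval -1.01 to 0.06, adjusted p = 0.326 in edgeR). Leaving out si-KRT7 replicate 2, the library that overlapped, necessarily set the groups apart. The log2 fold change was then -0.63 and the adjusted p 0.0393 in edgeR, in a fit that called 42.9% of 16202 genes.

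The transcripts of *CXCL1*, *CXCL2* and *CXCL3* are highly similar in sequence, and the counting tool and its treatment of reads that match several genes are not given in the sources used here. Their separate values are therefore uncertain to the extent that reads could be exchanged between them. The ratio of *CXCL1* to *CXCL2* reads was 0.695, 0.850 and 1.35 in si-Control replicates 1, 2 and 3 and 2.55, 1.24 and 1.49 in those of si-KRT7. It was thus highest in si-KRT7 replicate 1, while replicate 2 lay within the si-Control range.

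*CXCL3* (ENSG00000163734), with 22 to 38 reads per library, was at 1.01, 0.939 and 0.858 CPM in si-Control replicates 1, 2 and 3 and at 0.888, 0.800 and 1.23 CPM in those of si-KRT7. The si-KRT7 libraries held both the lowest and the highest value. Accordingly the log2 fold change was 0.05 with a 95% interval of -0.59 to 0.70 (adjusted p = 0.942 in edgeR), so changes within that interval, in either direction, were not excluded. It was -0.01 without si-Control replicate 3, -0.15 without si-KRT7 replicate 3 and 0.17 without si-KRT7 replicate 2.

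*CXCL8* (ENSG00000169429), which encodes interleukin-8 and binds CXCR1 as well as CXCR2, had the most reads of the CXCR2 ligands. It was at 5.48, 4.72 and 6.26 CPM in si-Control replicates 1, 2 and 3 and at 6.30, 5.31 and 6.62 CPM in those of si-KRT7. The groups overlapped over most of their range. The log2 fold change was 0.15 (95% interval -0.21 to 0.51, adjusted p = 0.658 in edgeR), and as a fold the interval runs from 0.865 to 1.42. Without si-KRT7 replicate 2 the value was 0.23 (adjusted p = 0.228 in edgeR). Summed over the 5 CXCR2 ligands, the level was between 11.2 and 12.3 CPM in si-Control and between 11.6 and 13.0 CPM in si-KRT7 libraries, ranges that overlapped.

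*CCL20* (ENSG00000115009), the only chemokine of the CC family in the set, had 22 to 35 reads in si-Control and 13 to 21 reads in si-KRT7 libraries. Its level was 1.01, 0.608 and 1.08 CPM in si-Control replicates 1, 2 and 3 and 0.565, 0.509 and 0.422 CPM in those of si-KRT7. All si-KRT7 libraries were lower, but si-Control replicate 2 came close to them. The log2 fold change of -0.84 was about that of *IL1B*, with a wider interval (95% interval -1.62 to -0.05, adjusted p = 0.242 in edgeR). Without si-KRT7 replicate 2 it was -0.85 (adjusted p = 0.133 in edgeR).

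**Figure D3:**
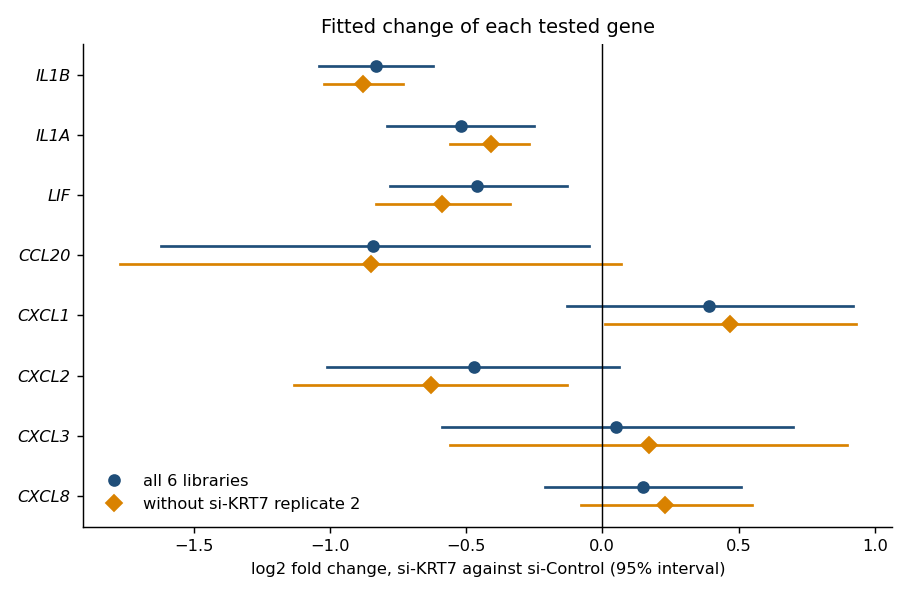
Fitted log2 fold change of si-KRT7 against si-Control cells (horizontal axis) with 95% intervals for the 8 tested genes, over 6 libraries (blue circles) and without si-KRT7 replicate 2 (orange diamonds). *IL1B* lies at -0.83 and -0.88 with narrow intervals, *CCL20* at a similar value with wide ones, and the CXCR2 ligands lie on both sides of 0.

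The measured replicate spread differed among the genes. Each value rests on only 3 libraries and is itself uncertain, and differences in spread between genes or groups were not tested. *IL1B* and *IL1A*, with 549 to 1404 reads per library, had coefficients of variation of 5.56% and 5.61% in si-Control cells, where counting alone gives 2.71% and 2.94%. *CXCL1*, *CXCL2* and *CCL20* varied by 22.1%, 20.4% and 28.4% in the same libraries, above the 10.7%, 10.3% and 18.2% of counting error. *CXCL3* was the exception in si-Control cells, with 8.33% against 17.7% from counting. The spread was not the same in si-KRT7 cells. There *CXCL3* varied by 23.5% against 18.0% from counting, and *CCL20* by 14.5% against 25%. *IL1A* varied by 13.9% in si-KRT7 cells against 3.62% from counting, and *IL1B* by 5.45% against 3.74%. The precision of the fold changes followed the depth: the standard error of the log2 fold change ran from 0.091 for *IL1B*, with a mean of 1040 reads per library, to 0.34 for *CCL20*, with a mean of 23.2 reads.

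The 8 tested genes had a median log2 fold change of -0.47, where the median over all 15736 genes was 0.011. Of the 8, 5 had a log2 fold change under 0, as did 48.3% of all genes. The groups did not overlap in 4 of the 8, all lower, where 13.0% of all genes did not overlap and were lower. As the genes were chosen with earlier results of these data known, these comparisons are a description and not a test. Without si-KRT7 replicate 2, 4 of the 8 had an adjusted p under 0.05 in edgeR (*IL1B*, *IL1A*, *LIF* and *CXCL2*), all lower, where 22.0% of the 16202 genes then tested were called as lower and 42.9% were called in either direction. Summed over the 10 genes, the level was between 95.1 and 102 CPM in si-Control and between 65.7 and 69.4 CPM in si-KRT7 libraries, a gap carried mostly by *IL1B* and *IL1A*.

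**Figure D4:**
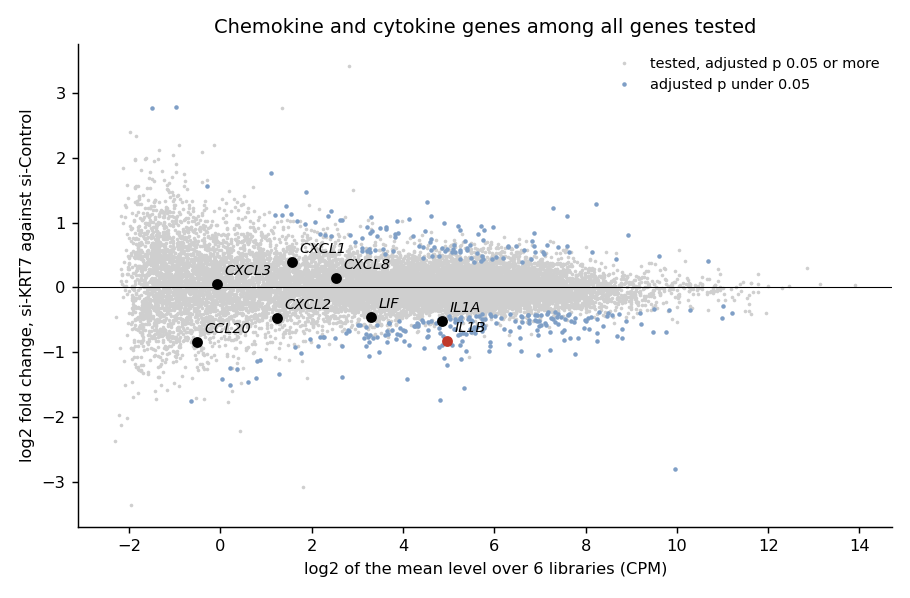
Log2 fold change of si-KRT7 against si-Control cells (vertical axis) against the log2 of the mean level in CPM (horizontal axis) for the 15736 genes tested, with the 325 genes at an adjusted p under 0.05 in blue. The 8 chemokine and cytokine genes are labelled, and *IL1B* (red) is the one of them past that limit.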

How the data were processed

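For each of the 6 libraries the authors deposited a raw count of reads on every gene, with no scaling. The submitters' processing notes name STAR 2.7.11b and the mouse build GRCm39, whereas the identifiers are human Ensembl genes; the counting tool, its strand setting and the annotation are not given in the sources used here. The genes were selected by identifier, and they and the lists were chosen with earlier results of these data known. Of 30543 identifiers, 0 matched the mouse gene name table used here. The 11 lists of related and marker genes, *KRT7*, gene lengths, coordinates and sequences were therefore not analysed here. Levels were not corrected for gene length. Ratios, shares and sums over genes thus compare reads, not numbers of transcripts.

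In R 4.3.3 with edgeR 4.0.16, filterByExpr kept 15736 genes (99.9% of counts). TMM, glmQLFit and glmQLFTest were applied with Benjamini-Hochberg adjustment over all genes tested. Standard errors are the log2 fold change divided by the square root of F. Log2 CPM used a prior count of 2. Named were the 10 genes and, for *CXCL5*, those most correlated with it among genes with a mean of at least 50 counts. Alternatives used DESeq2 1.42.0, limma 3.58.1, other scalings and filters, a replicate block and each library left out. No pair looked like the same library sequenced again: the lowest mean chi-square per gene was 3.70. That value cannot show whether libraries came from separate cultures.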

Additional observations from a re-analysis of the deposited data

How the results depend on the processing

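In edgeR 325 of all genes and 1 of the 8 tested chemokine and cytokine genes had an adjusted p under 0.05. The DESeq2 Wald test gave 1148 of 15736 genes and 2 of the 8 (*IL1A* and *IL1B*). Limma-voom with sample quality weights gave 6858 of 15736 genes and 4 of the 8 (*CXCL2*, *IL1A*, *IL1B* and *LIF*). Without a filter on low counts, 30543 genes and all 10 of the set were tested. This gave 1347 and 2 (*IL1A* and *IL1B*). With each library left out in turn the numbers ran from 6 to 6944 and from 0 to 4. Both were highest without si-KRT7 replicate 2, where 42.9% of the 16202 genes tested were called. *IL1B* was lost without any of si-Control replicates 1, 2 and 3 and without si-KRT7 replicate 3; these fits called 6 to 36 of all genes. Its log2 fold change stayed between -0.88 and -0.79 over 14 alternatives. The value for *CXCL3* ran from -0.15 to 0.17 over the fits without a library and changed sign without si-Control replicate 3 (-0.01) or si-KRT7 replicate 3 (-0.15). The log2 ratio of pooled *CXCL5* counts ran from 1.66 to 3.13 with a library left out. For *CXCL5* the other models could not be fitted after the filter. None of the 8 tested genes passed the adjusted p and the fold change limit together under any of the 14 alternatives, and neither did *CXCL5* or *IL6* in the 1 alternative that tested them, without a filter. The share of all genes past both limits was counted only in edgeR with 6 libraries, where it was 0.292%. Apart from the libraries left out and the genes filtered, the cause was not tested.

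With the replicate block, 76 of all genes and 1 of the 8 (*IL1B*, adjusted p = 0.0307 in edgeR) were called. Across genes, libraries 1, 2 and 3 of either group deviated from their group means with correlations of 0.0520, -0.0798 and -0.0728. Replicate 2 of si-KRT7, which stood apart, enters all these values through the group mean. They therefore cannot decide whether libraries were paired. At these depths, the tested genes with fewer reads than *CXCL8* gave 95% intervals more than 1 unit of log2 fold change wide.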
